A study of Homo sapiens with 4 samples.

Results

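Of 78859 replication-initiation regions listed for HCT116 cells with unaltered RepID (WT origins), 5523 lay on chromosomes 1 to 22, were narrower than 20 kb, overlapped a RepID-bound region by at least 1 bp and overlapped no initiation region of RepID knockout (KO) cells. These 5523 origins were chosen by their RepID overlap, their width and the absence of a KO region, so those values describe the set and are not findings about it. They made up 7.26% of the 76059 WT origins that met the chromosome and width limits and 45.6% of the 12103 RepID-overlapped ones among them. Over all 76059, 38.9% had no KO region. "RepID-overlapped origins absent from KO cells" below means these 5523 regions.

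Replication of human chromosomes starts at many origins, only some of which fire in any given cell cycle. Newly started replication leaves short nascent DNA strands that carry an RNA primer, and sequencing strands that resist lambda exonuclease marks where initiation took place. RepID, encoded by PHIP, belongs to the DCAF proteins, the substrate receptors of CUL4 ubiquitin ligases, and associates with a subset of human origins.

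Nascent strands came from asynchronous HCT116 cells, a colorectal carcinoma cell line, either with unaltered RepID or with RepID depleted by CRISPR-Cas9 and puromycin selection, and both lists of regions were called against the same HCT116 genomic DNA. RepID binding was measured by ChIP-Seq with a FLAG antibody, in osteosarcoma cells (the U2OS line) that carried FLAG-tagged RepID. Binding and initiation were therefore recorded in different cell lines, and a RepID region below is one bound in U2OS cells. Each condition had 1 library of unknown depth, since read totals are not part of the lists. No difference between WT and KO cells could be set against replicate spread, and no test between them was made.

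The WT list held 78859 regions and the KO list 159667, and all edges of both lie on a grid of 200 bp. The deposited KO list is longer than the number of KO peaks stated in the study's text, and the sources used here do not say how the lists are related. A shorter KO list leaves more origins absent, and with only as many of the best-scoring KO regions as there were WT regions the absent share of RepID-overlapped origins was 64.9%. Unless stated otherwise, values are for the KO list as deposited. KO regions covered 19.3% of the autosomes. Shares are followed by exact binomial 95% intervals, differences of shares by Newcombe intervals. All intervals cover counting error only, and neighbouring regions are not independent. Positions are on hg19 and are counted from 1.

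Of the loci that the study shows in genome browser views, those of STYX and CLIP3 held a RepID-overlapped origin absent from KO cells, and those of CTCF and COL5A3 held none. STYX encodes a catalytically inactive relative of the dual-specificity phosphatases, and CLIP3 encodes a CAP-Gly domain protein of the trans-Golgi network. The 250 bases before the RefSeq start of each gene are printed to show the kind of GC-rich sequence found at these loci, from GRCh38.p14 (chr14:52729916-52730165, plus strand, for STYX and chr19:36032874-36033123, minus strand, for CLIP3). They are written 5′ to 3′ along the gene, with runs of at least 3 G or at least 3 C in capitals.
STYX: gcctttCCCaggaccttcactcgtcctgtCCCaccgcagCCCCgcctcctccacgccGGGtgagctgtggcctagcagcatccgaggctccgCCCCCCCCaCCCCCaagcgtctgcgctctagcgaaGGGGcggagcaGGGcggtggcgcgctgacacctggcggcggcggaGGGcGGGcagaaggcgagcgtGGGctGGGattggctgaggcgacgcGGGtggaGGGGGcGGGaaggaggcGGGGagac
CLIP3: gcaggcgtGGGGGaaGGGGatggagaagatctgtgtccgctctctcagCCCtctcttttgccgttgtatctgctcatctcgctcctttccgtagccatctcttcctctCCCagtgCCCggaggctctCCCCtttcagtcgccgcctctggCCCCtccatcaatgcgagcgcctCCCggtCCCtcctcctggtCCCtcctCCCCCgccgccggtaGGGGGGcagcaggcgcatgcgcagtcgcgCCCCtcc
The STYX stretch had a GC content of 74.0% with 11 G runs and 5 C runs, and the CLIP3 stretch a GC content of 66.8% with 3 G runs and 10 C runs. The median GC content over 35116 RefSeq promoter entries was 58.0%. A pattern of 4 runs of at least 3 G separated by 1 to 7 bases, searched on both strands, was in neither stretch and in 23.5% of all entries. Since these stretches are on another build than the lists, they could not be placed against the edges of the origins.

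At the CLIP3 locus the WT origin ran from 36522801 to 36525400 on chromosome 19 (2600 bp, WT score 324). The WT score is a whole number that the list gives for each region, and its definition is not stated in the sources used here. 1 RepID region with a MACS score of 591 covered 49.2% of the origin, from 36522921 to 36524200. The next KO region began 200 bp to the right and ran from 36525601 to 36527000, and the next one on the left was 7800 bp away. A KO region thus began 1 grid step from the edge of this origin. At the STYX locus the WT origin was 600 bp wide, from 53196601 to 53197200 on chromosome 14, with a WT score of 108. Its RepID region (MACS score 253) ran past the right edge, from 53196749 to 53197417. KO regions lay 5600 bp to the left and 2400 bp to the right.

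The origins absent from KO cells were narrower and, over all widths, scored lower than the RepID-overlapped origins that had a KO region. Their median width was 2400 bp with quartiles of 1600 and 4000 bp, against 4200 bp (2400 and 8000 bp) for the 6580 RepID-overlapped origins with a KO region. Among RepID-free origins the median was 1800 bp for the 24059 without a KO region and 2600 bp for the 39897 with one. A wide region has more chances to meet a region of another list, so width is part of what the overlap rules select. The median WT score of the absent RepID-overlapped origins was 208 (95% interval of the median 200 to 216, range 23 to 9498), the 66.7th percentile of the WT list. It was 403.5 for RepID-overlapped origins with a KO region, 92 for RepID-free origins without one and 113 for RepID-free origins with one. At matched width the absent RepID-overlapped origins had slightly higher median scores than the present ones, except below 1 kb (48 against 51). Among origins of 1 to 2 kb the medians were 98 and 96, among those of 3 to 5 kb 355 and 339, and among those of 10 to 20 kb 1821 and 1793. RepID-free origins absent from KO cells had lower medians at the same widths, with 69, 204 and 1568.

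The share of RepID-overlapped origins absent from KO cells was 45.6% (44.7 to 46.5%), against 37.6% (37.2 to 38.0%) of RepID-free origins, a difference of 8.02 percentage points (7.05 to 8.98). The difference was largest among narrow origins. Below 1 kb, 318 of 408 RepID-overlapped origins (77.9%) were absent, against 3518 of 7037 RepID-free ones, a difference of 27.9 points (23.5 to 31.9). At 1 to 2 kb it was 18.7 points (65.0% against 46.4%), at 2 to 3 kb 16.9 points (54.5% against 37.6%) and at 3 to 5 kb 11.8 points (41.8% against 30.0%). At 5 to 10 kb it was 6.71 points (30.4% against 23.7%). At 10 to 20 kb the interval of the difference included 0, with 2.27 points (-0.184 to 4.80). The same order was seen over 5 equal groups of WT score, where the difference fell from 26.8 points in the lowest group (scores 23 to 60) to 6.27 points in the highest (356 and above).

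**Figure D1:**
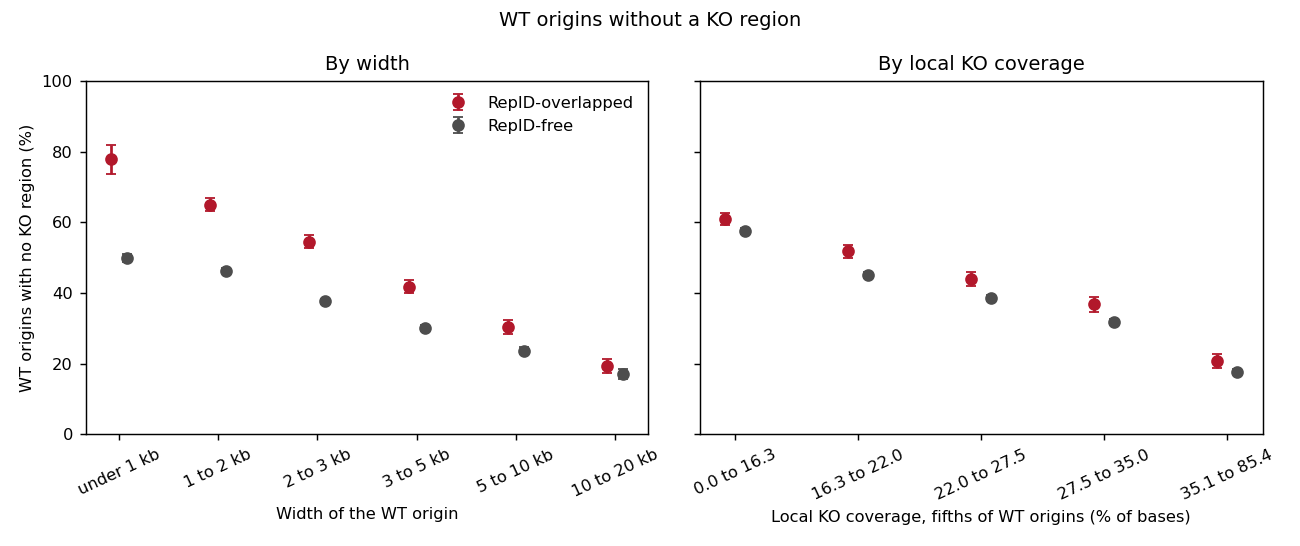
Share of WT origins without a KO region (%, y axis) for RepID-overlapped (red) and RepID-free (grey) origins, by width of the WT origin (left) and by 5 equal groups of local KO coverage (right), with exact binomial 95% intervals. The gap between red and grey narrows from 27.9 points below 1 kb to 2.27 points at 10 to 20 kb, and both shares fall as local KO coverage rises.

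The neighbourhood also differed. Local KO coverage, the share of bases inside a KO region within 250 kb of the origin with the nearest 10 kb on each side left out, had a median of 19.5% around the absent RepID-overlapped origins. It was 24.6% around RepID-overlapped origins with a KO region, 21.5% around RepID-free origins without one and 27.6% around RepID-free origins with one. RepID-overlapped origins thus lay in surroundings with fewer KO bases than RepID-free origins of the same outcome. Within the 5 equal groups of local KO coverage the absent shares were 60.9%, 51.8%, 44.1%, 36.8% and 20.7% for RepID-overlapped origins, and 57.6%, 45.1%, 38.7%, 31.7% and 17.7% for RepID-free ones. The differences were then 3.35 points in the lowest group, 6.75 in the next and 2.97 in the highest. When RepID-free origins were weighted to the local KO coverage of RepID-overlapped ones the difference was 4.77 points, when weighted to their widths 12.7 points, and when weighted to both 9.35 points. The part of the local KO landscape in the crude difference of 8.02 points was otherwise not tested.

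RepID occupied a larger part of the absent origins. In all, 8002 RepID regions, 33.0% of the 24222 listed, overlapped an absent origin, and none of them overlapped more than 1 such origin. RepID regions covered 27.9% of the summed length of the absent origins and 18.4% of that of RepID-overlapped origins with a KO region. Per origin the median covered share was 34.4% against 21.3%. At matched width the gap was smaller. It was 48.9% against 42.0% at 1 to 2 kb, 38.2% against 33.5% at 2 to 3 kb and 14.6% against 14.5% at 5 to 10 kb. The RepID regions themselves were much alike in both sets, with a median MACS score of 216 against 208 and a median width of 575.5 against 583 bp.

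Most absent origins held 1 RepID region (3661, 66.3%), while 1434 (26.0%) held 2, 316 held 3, 71 held 4 and 41 held 5 or more. Over all widths the absent share did not rise with the number of RepID regions. It was 46.3% with 1 region, 46.8% with 2, 41.1% with 3, 31.8% with 4 and 29.7% with 5 or more. Origins with more RepID regions were wider, and within width classes the order turned. At 1 to 2 kb the absent share was 63.0% with 1 RepID region and 74.5% with 2. At 2 to 3 kb it was 51.5%, 59.6% and 69.1% with 1, 2 and 3 regions, and at 3 to 5 kb 38.8%, 44.0% and 56.8%. Origins with 2 or more RepID regions differed from those with 1 by -1.84 points over all widths (-3.70 to 0.0222). By width the difference was 11.3 points at 1 to 2 kb (6.56 to 15.7), 9.16 at 2 to 3 kb (5.17 to 13.1), 8.05 at 3 to 5 kb (4.14 to 11.9) and 4.95 at 10 to 20 kb (0.920 to 8.91). The interval included 0 below 1 kb, where 23 origins held 2 or more RepID regions, and at 5 to 10 kb (3.54 points, -0.169 to 7.27). Weighted to equal widths the difference was 6.92 points, and weighted to equal widths and local KO coverage 5.74 points.

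**Figure D2:**
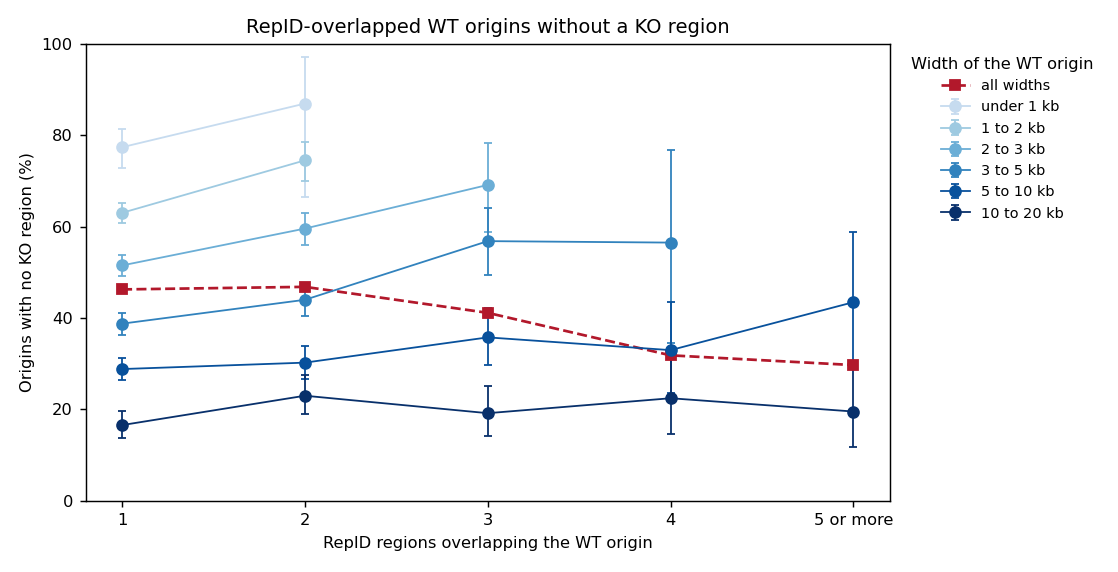
Share of RepID-overlapped WT origins without a KO region (%, y axis) by the number of RepID regions they overlap (x axis), for each width class (blue, exact binomial 95% intervals) and for all widths together (red squares). The red line falls from 46.3% to 29.7%, while the lines for 1 to 5 kb start lower with 1 RepID region than with 2. Points resting on fewer than 20 origins are left out.

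The strength of RepID binding gave a similar picture most clearly at 1 to 2 kb. RepID-overlapped origins were ranked by the MACS score of their strongest RepID region and put in 5 equal groups. Over all widths the absent shares from the weakest to the strongest group were 43.8%, 44.8%, 48.0%, 47.4% and 44.2%. At 1 to 2 kb they were 61.0%, 58.9%, 65.3%, 69.8% and 73.7%, and at 2 to 3 kb 51.0%, 53.3%, 54.7%, 55.2% and 58.0%. The intervals of the weakest and strongest groups were apart at 1 to 2 kb (56.5 to 65.2% and 68.6 to 78.4%). They overlapped at 2 to 3 kb (46.5 to 55.5% and 53.6 to 62.3%). At 3 to 5 kb the shares were 40.6% in the weakest and 43.6% in the strongest group. At 5 to 10 kb no such order was seen, with 29.9%, 30.0%, 33.7%, 29.0% and 29.9%. Nor was it seen at 10 to 20 kb, with 14.3%, 23.7%, 20.1%, 18.4% and 19.6%.

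RepID regions lay towards the middle of absent origins of 1 to 5 kb. They did so no more than in other RepID-overlapped origins of the same width. Over all absent origins, the distance from the center of a RepID region to the center of the origin had a median of 512.5 bp. Its quartiles were 230 and 1039 bp, and the median was 892 bp in RepID-overlapped origins with a KO region. By width the medians were 286 and 280 bp at 1 to 2 kb, 432 and 422.5 bp at 2 to 3 kb, and 709.5 and 699 bp at 3 to 5 kb. As a share of the distance from center to edge, the median offset in absent origins was 0.396, 0.369 and 0.377 in these classes. It was 0.545 below 1 kb, 0.447 at 5 to 10 kb and 0.492 at 10 to 20 kb. A RepID region can overlap an origin with its center beyond the edge, most easily in narrow origins. Below 1 kb only 22.8% of the RepID regions lay wholly inside the absent origin. The offset under random placement therefore differs by width and was not computed, so the width classes were not ranked by central position. In the absent origins 80.7% of the overlapping RepID regions lay wholly inside the origin, and 64 origins lay wholly inside a RepID region. RepID did not sit on the side of the nearer KO region more often than on the other side. Among absent origins with 1 RepID region this held for 1774 of 3630 (48.9%, 47.2 to 50.5%).

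The 5 absent origins with the most RepID regions were 10800 to 14800 bp wide. The first, from 41956601 to 41971400 on chromosome 1 (WT score 1934), held 10 RepID regions with MACS scores of 120 to 1145, which covered 44.2% of it. KO regions lay 800 bp to its left and 5400 bp to its right. The second, from 55515001 to 55525800 on chromosome 3 (WT score 1266), held 9 RepID regions with scores of 101 to 278. The other three held 8 each and began at 77152601 on chromosome 18, 132248201 on chromosome 9 and 1313401 on chromosome 5. On chromosome 5 the RepID regions filled the right part of the origin, and the highest score, 1003, belonged to the one closest to the right edge.

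**Figure D3:**
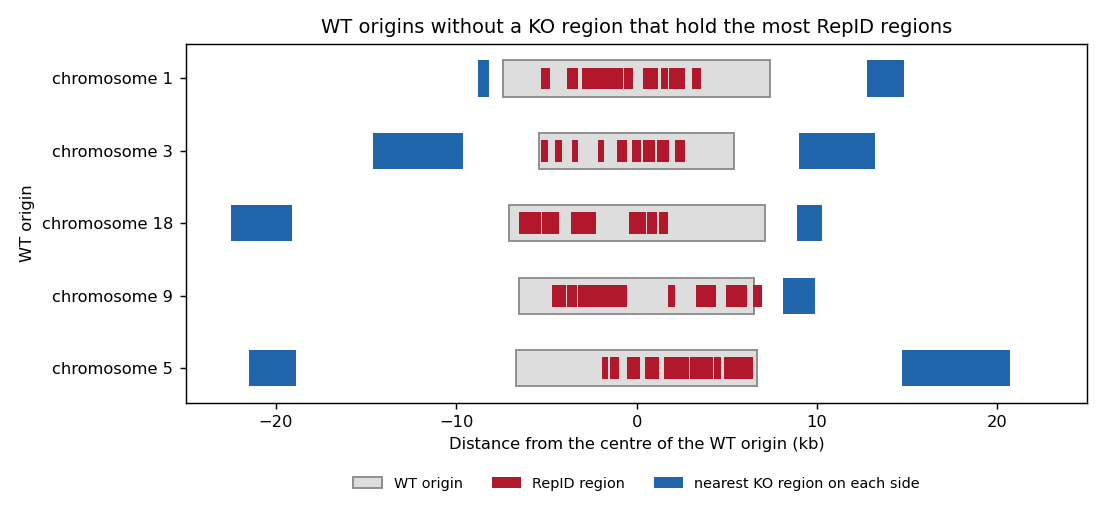
Layout of the 5 absent origins with the most RepID regions, drawn to scale as distance from the center of the origin (kb, x axis). Grey bars are WT origins, red bars RepID regions and blue bars the nearest KO region on each side, and the left KO region of the chromosome 9 origin, 52800 bp away, lies outside the plot. By the rule no KO region enters a WT origin, and the smallest gap is 800 bp, on chromosome 1.

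Among single origins, the highest WT score was 9498, from 33961201 to 33967600 on chromosome 16. This origin held 2 RepID regions that covered 84.9% of it, and its KO gaps were 34800 and 12800 bp. The KO regions beside it had KO scores of 1917 and 3422, against a median of 130 over all KO regions. Read mapping at this and the other named origins could not be examined from the lists. Next came the origin from 133008601 to 133017400 on chromosome 2, with a WT score of 9337 and 4 RepID regions that covered 72.2% of it. The next 3 by score were 15800 to 19400 bp wide, began at 1844601 on chromosome 1, 665001 on chromosome 4 and 1282801 on chromosome 19, and scored 7638, 6732 and 6578. Their RepID regions covered only 1.85 to 14.4% of them. High WT scores therefore occurred both with RepID over most of the origin and with RepID over a small part of it.

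The highest MACS scores could not be ranked closely, since 32 RepID regions shared the value 3100 and 5 stood above it. Of the 5 above it, 3 were the strongest RepID region of an absent origin. The one listed at 3233 covered 84.4% of the origin from 62065601 to 62069400 on chromosome 4 (WT score 825). This origin stood alone, with the next WT origins 1156800 and 220400 bp away and the nearest KO region 20800 bp away. The origin from 5894401 to 5897000 on chromosome 18 held one listed at 3199, and the origin that began at 132157401 on chromosome 10 held one listed at 3114. A further 9 absent origins had the shared value, and the 2 of them with the highest WT scores began at 28191001 on chromosome 22 and 9437201 on chromosome 21. The WT scores of these 5 named origins ranged from 106 to 2823, so a strong RepID region came with WT scores on either side of the set's median of 208.

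KO regions were sparse in the first kilobases outside the absent origins and came close to their autosomal level at 4 to 5 kb. Origins were classed by whether a KO region overlapped them, so low or high KO coverage close to the edge follows from that choice. The median gap from an absent origin to the nearest KO region was 5000 bp (quartiles 2000 and 10800 bp), against 4200 bp for RepID-free origins absent from KO cells. A KO region lay within 2 kb of 1403 absent RepID-overlapped origins (25.4%) and of 30.0% of the RepID-free ones, and within 10 kb of 73.0% and 77.2%. KO regions stood within 10 kb on both sides of 27.6% against 34.2%. By width, the gap was larger for RepID-overlapped origins at 1 to 2 kb (5200 against 4000 bp) and 2 to 3 kb (4800 against 3800 bp), and smaller at 3 to 5 kb (4200 against 4600 bp). The KO regions next to absent RepID-overlapped origins were ordinary for their list, at a median of 2800 bp wide and a median KO score of 121, against 3000 bp and 130 over all KO regions.

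**Figure D4:**
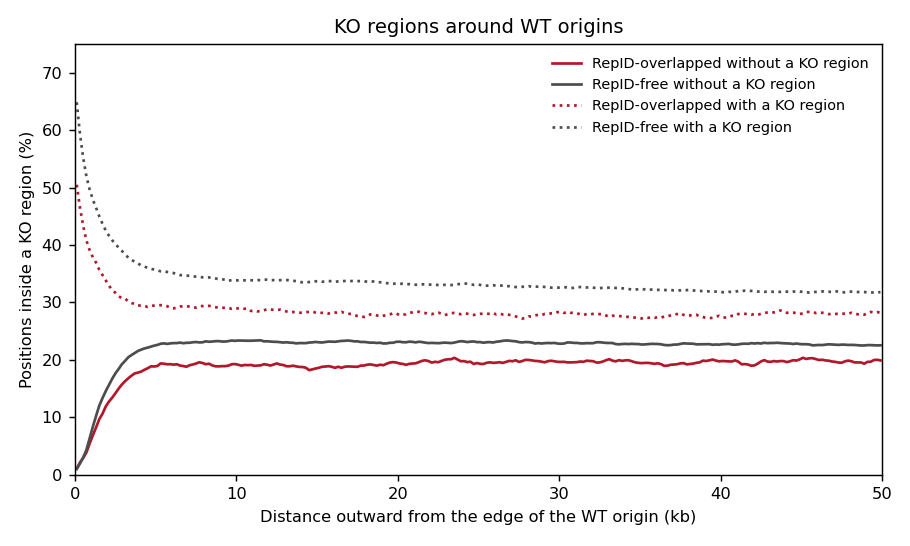
Share of positions inside a KO region (%, y axis) by distance outward from the edge of a WT origin (kb, x axis), for RepID-overlapped (red) and RepID-free (grey) origins without (solid) and with (dotted) a KO region. The solid red line rises from 3.09% in the first kb to 18.5% at 4 to 5 kb and then stays near the 19.3% of the autosomes as a whole. Low solid and high dotted values close to the edge follow from the choice of origins by KO overlap.

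Outward from the edge of the absent RepID-overlapped origins, KO regions covered 3.09% of positions in the first kb, 9.47% in the second and 18.5% at 4 to 5 kb. At 49 to 50 kb they covered 19.9%, close to the 19.3% of the autosomes. Around absent RepID-free origins the values were 3.34%, 11.7% and 22.1%, with 22.6% at 49 to 50 kb. Around RepID-overlapped origins with a KO region the share was 44.1% in the first kb and 28.3% at 49 to 50 kb. The stretches between KO regions that held absent RepID-overlapped origins numbered 5034 and had a median length of 26400 bp (quartiles 15600 and 44600 bp). In 3134 of them (62.3%) the absent origin was the only WT origin.

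At the border of the rule, 117 absent origins touched a KO region with no gap and 117 had a gap of 200 bp, while 248 RepID-overlapped origins shared exactly 200 bp with a KO region. The origins that touched and those that shared 200 bp had the same median width, 2200 bp, and median WT scores of 186 and 180.5. At the border of RepID overlap, 47 absent origins had under 100 bp of RepID and 4 had at most 10 bp, against a median of 800 bp, and 52 RepID-free absent origins lay within 200 bp of a RepID region. The widest absent origins were 19800 bp, and 110 further ones on the autosomes were left out for reaching 20 kb, the narrowest at 20000 bp.

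Absent RepID-overlapped origins were more isolated among WT origins than the other classes. The median gap to the next WT origin was 6400 bp, against 3200 bp for RepID-overlapped origins with a KO region and 2800 bp for RepID-free origins without one. No other WT origin lay within 20 kb of 1679 of them (30.4%, 29.2 to 31.6%), against 19.3% of RepID-overlapped origins with a KO region and 15.2% of absent RepID-free origins. Where the next WT origin lay within 20 kb, it was itself absent from KO cells in 3162 of 6285 cases (50.3%, 49.1 to 51.6%), against 33.8% beside RepID-overlapped origins with a KO region. Beside absent RepID-free origins the share was 48.8%. Among the neighbors, 49.3% of RepID-overlapped and 50.6% of RepID-free ones were absent, within the counting error of each other. The share was 55.8% for neighbors up to 2 kb away and 45.3% for those 10 to 20 kb away, while beside RepID-overlapped origins with a KO region it was 30.1% and 36.5%. Origins were classed by KO overlap, which also sets the KO coverage close to their edges. The shares among neighbors therefore follow in part from that choice, most of all at short distance. Within each of the 5 groups of local KO coverage the neighbors of absent origins were absent more often, with 64.6% against 51.3% in the lowest group and 29.9% against 16.1% in the highest. Local KO coverage leaves out the nearest 10 kb, so these groups do not remove the part that follows from the choice of origins.

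Most absent RepID-overlapped origins stood singly in the order of WT origins. Of the 5523, 4247 (76.9%) had no other member next to them, and there were 500 pairs, 65 runs of 3, 15 runs of 4, 3 runs of 5 and 1 run of 6. The set made up 7.26% of the WT origins within the chromosome and width limits. Most of so small a share would stand singly in a random order too. The level in a random order was not computed, so these counts show neither spread nor clustering. The median distance to the next absent RepID-overlapped origin was 93.4 kb, and 10.6% had one within 10 kb. RepID-overlapped origins with a KO region lay closer to each other, at a median of 61.0 kb with 17.4% within 10 kb, and were also more numerous (6580). The run of 6 spread over 529.4 kb on chromosome 10, from 42725401 to 43254800, with WT scores of 51 to 1038. A run of 5 on chromosome 19 was compact, with 33.6 kb from 12880001 to 12913600, 9 RepID regions and gaps of 800 to 4800 bp between origins. The origin from 12899201 to 12905400 had the highest WT score of the run, 913, and 5 of the 9 RepID regions. The run of 5 on chromosome 10 from 22291601 to 22615400 held 8 RepID regions in 323.8 kb, and the STYX origin belonged to a run of 5 from 53161601 to 53620800 on chromosome 14.

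Of 1855 windows of 1 Mb that held an absent RepID-overlapped origin, 48 held 10 or more. The window from 2000001 to 3000000 on chromosome 19 held the most, with 20 of its 21 RepID-overlapped origins absent and 23 KO regions beside 78 WT origins. In the window from 12000001 to 13000000 on the same chromosome all 17 were absent. The absent share of RepID-free origins was not counted by window. Over chromosome 19 as a whole it was 58.2%, against 56.6% for RepID-overlapped origins. Next by number was the window from 132000001 to 133000000 on chromosome 9, with 19 of 28. Of 957 windows with 5 or more RepID-overlapped origins, 18 had every one absent, which was not set against a chance level. These 18 windows held between 0 and 68 KO regions, and the part of KO density in full absence was not tested.

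On 21 of 22 autosomes the absent share was higher for RepID-overlapped than for RepID-free origins, and on 18 the interval of the difference lay above 0. The share of RepID-overlapped origins that were absent ran from 29.5% on chromosome 17 to 57.2% on chromosome 7, with 30.6% on chromosome 8. The largest difference, 14.4 points (7.09 to 21.5), was on chromosome 18. Chromosome 19 was the exception, with 56.6% of RepID-overlapped and 58.2% of RepID-free origins absent, a difference of -1.67 points (-5.87 to 2.46). It had the most absent RepID-overlapped origins per Mb, 6.19, and the fewest KO regions per WT region, 0.733. Chromosome 4 had 3.98 KO regions per WT region, with 54.5% of its RepID-overlapped origins absent. As a description over the 22 autosomes, which share the same libraries, the RepID-overlapped and RepID-free shares rose together (Pearson's r 0.84, Spearman's rho 0.87). The RepID-overlapped share and the number of KO regions per WT region showed little relation (Pearson's r 0.083, Spearman's rho 0.18).

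**Figure D5:**
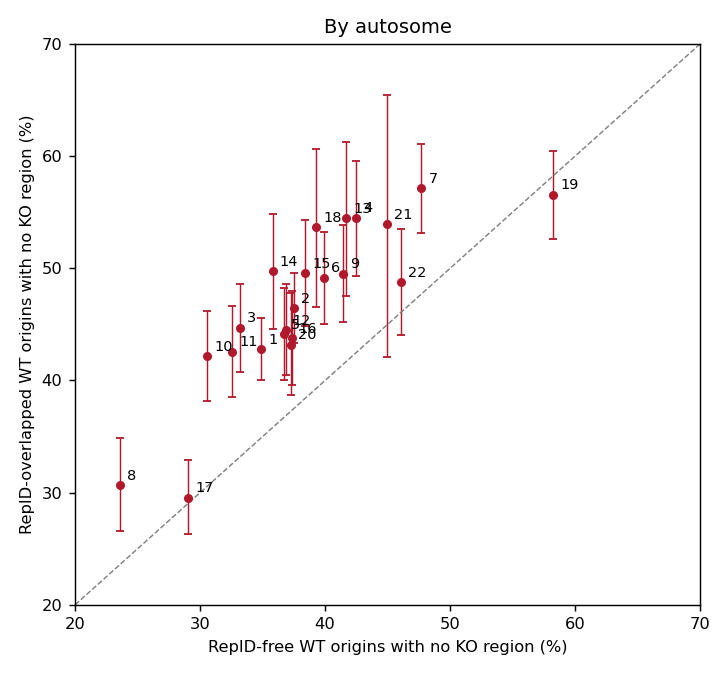
Share of RepID-overlapped WT origins without a KO region (%, y axis, exact binomial 95% intervals) against the same share of RepID-free WT origins (%, x axis), 1 point per autosome with its number, with the line of equality dashed. All points lie above the line except chromosome 19, and chromosome 17 lies close to it with 29.5% against 29.0%.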

How the data were processed

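Deposited region lists were used for 3 libraries, namely nascent strands of HCT116 WT cells, nascent strands of HCT116 RepID KO cells and RepID ChIP-Seq of U2OS cells. Each region carries a score as deposited by the authors, a MACS score for RepID and a whole number of unstated meaning for nascent strands. The processing notes name MACS, SICER and hg19. The programme used for the HCT116 lists is not given in the sources used here. No score was set against one of another list. The HCT116 genomic control, used by the authors in calling regions, was not analysed here.

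Overlaps (at least 1 bp), gaps and coverage were computed in Python 3.11.15 (pandas 2.3.3, numpy 2.4.6, SciPy 1.17.1). On 1600 simulated regions all of them were checked against a direct count, and the numbers of overlaps also against bedtools 2.31.1. Shares have exact binomial (Clopper-Pearson) intervals and medians order-statistic intervals. Named regions were the 5 with the highest WT score, RepID score, RepID number, KO gap or width, the 3 longest runs of neighbours, and members at loci the study displays. The members, classes and comparisons were chosen with earlier results of these data known. No hg19 genome or annotation was used, so GC content, motifs and distances to genes were not analysed here. Promoter sequences are from RefSeq on GRCh38.p14, with the first of 2 entries taken for CLIP3. Alternatives changed the overlap rules, the score limits, the KO list and the width limit.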

Additional observations from a re-analysis of the deposited data

How the results depend on the processing

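Of 63 alternative values 24 moved by less than the counting error and 39 moved by more. None reversed, but only the difference between shares could change sign, since the other values cannot be negative. The cause of a move was not tested unless the setting itself fixes it. In this order the text gives the absent share of RepID-overlapped origins, its difference from RepID-free origins, and the absent origins' median width, WT score, KO gap, RepID offset and gap to the next WT origin, and the absent share of neighbors. Where KO regions had to cover 50% of an origin, the values were 71.6%, 21.7 points, 3000 bp, 283, 1800 bp, 640 bp, 4800 bp and 65.1%. With only as many of the best-scoring KO regions as there were WT regions, they were 64.9%, 10.9 points, 2600 bp, 237, 11400 bp, 563.5 bp, 5700 bp and 68.0%. With a KO region within 2 kb counted as present, the share was 34.0%, the KO gap 7200 bp and the WT gap 7200 bp. With a RepID region within 2 kb accepted, the score was 196 and the WT gap 5000 bp. With RepID regions at or above their median score, the score was 227, the offset 470 bp and the WT gap 8000 bp. With WT regions at or above their median score, the share was 40.9%, the width 3000 bp, the score 320, the offset 652 bp, the WT gap 9600 bp and the neighbors' share 45.0%. With a width limit of 10 kb, the share was 49.3%, the difference 10.8 points, the width 2200 bp, the score 196, the offset 470 bp and the WT gap 7400 bp. Chosen after seeing the data, weighting gave differences of 12.7 points (width), 4.77 (local KO coverage) and 9.35 (both), and leaving out origins over 50 kb from a KO region moved no value beyond the counting error.

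The difference thus stayed above 0 under every alternative run, from 4.77 to 21.7 points, while the absent share itself depended on how overlap was defined and on the length of the KO list. Unknown depth, 1 library per condition and RepID binding from another cell line limit all values. No paired analysis was possible because no result comes from a test.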

Other observations

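The X chromosome lay outside the set. There 150 of 155 RepID-overlapped WT origins under 20 kb (96.8%, 92.6 to 98.9%) had no KO region, and so did 1094 of 1137 RepID-free ones (96.2%, 94.9 to 97.2%). The X chromosome had 190 KO regions beside 1304 WT regions, 0.146 per WT region, while autosomes ranged from 0.733 to 3.98. RepID-overlapped and RepID-free origins on the X chromosome were thus absent at shares whose intervals overlap.

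On distal chromosome 10 a single stretch without any KO region ran from 132294801 to 134434600 (2139.8 kb) and held 171 WT origins, 11 of them RepID-overlapped and in the set. The 5 absent RepID-overlapped origins farthest from a KO region all lay in it, led by the origin from 133109001 to 133111600, 814200 bp from the nearest KO region. Of the 31 absent RepID-overlapped origins over 100 kb from a KO region, 17 lay on chromosome 10 between 131760801 and 135195400, and 4 on chromosome 16 between 284401 and 477000. A second long stretch without KO regions, from 69801 to 621000 on chromosome 16 (551.2 kb), held 42 WT origins and 6 members of the set. In the window from 133000001 to 134000000 on chromosome 10 there were 80 WT origins and 0 KO regions.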
